A study of Sus scrofa with 9 samples.

Results

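Complement and acute-phase genes were examined in endothelial cells of the pig coronary artery. The 9 genes were C1R, C1S, C3, CFB, CFD, CD46, CD59, SAA2 and PTX3, and a probe set was taken when the array annotation gave it 1 gene symbol and that symbol was one of these. This gave 15 probe sets of 24123 on the array, for 9 of 6765 annotated genes. The genes were listed by name, at a time when earlier results of these data were already known. Genes with 1 probe set were C1R, C1S, C3 and CFD, while CD46 had 3 and CFB, CD59, SAA2 and PTX3 had 2 each. These are numbered here from the brightest, so SAA2 (1) is the brighter probe set of SAA2.

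RNA of 9 samples was hybridised to Affymetrix porcine arrays, 1 array per sample and 3 per group. Passage 4 cells had been split every week in vitro and are called senescent in the labels. Regenerated cells had grown back in the animal where endothelium had been stripped, and were collected and cultured with no further passage. Passage 1 cells, grown in primary culture for 1 week, were the controls. All groups were sampled without stimulation. The labelling reaction started with 1 ug of RNA at passage 4 and passage 1 and with 0.5 to 1 ug in regenerated cells, a difference that cannot be told apart from the regenerated group. Whether the 3 arrays of a group stand for separate animals is not stated, and neither are age, sex or strain. The p-values therefore cover no more than array-to-array spread, possibly only technical.

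Complement is a cascade of plasma and cell surface proteins that marks targets and kills them. Its classical branch starts when C1q binds and activates the proteases C1r and C1s. All branches meet at C3, whose fragment C3b binds factor B, which factor D then cuts to make the convertase of the alternative branch. Host cells protect themselves with membrane proteins, among them CD46 and CD55, which act on the C3 step, and CD59, which blocks the membrane attack complex. Serum amyloid A and pentraxins are acute-phase or inflammation-induced proteins, and endothelial cells exposed to cytokines are known to make PTX3 and several complement components.

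Values are MAS5 signals, 1 summary of brightness per probe set and array, on a linear scale. Median signals of the arrays ran from 86.5 to 109. To be tested, a probe set had to exceed the 40th percentile of the array, a signal of 37.2 to 49.2, on 3 or more of the 9 arrays. Of the 15 probe sets 11 passed, for 7 of the 9 genes, while C3, both probe sets of CFB and PTX3 (2) did not and are given by value. Differences are on the log2(signal + 16) scale and carry their standard error (SE). They come from limma fitted to 15299 probe sets and all 9 arrays, with Benjamini-Hochberg adjustment over all tested probe sets and an adjusted p under 0.05 as the threshold. Levels of different probe sets cannot be compared with each other.

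Bacterial transcripts added before labelling showed 2 kinds of array. On the log2 scale their 5' signal minus their 3' signal lay between -2.09 and -1.77 at passage 4, and passage 1 array 1, at -1.99, was alike. It lay between -5.19 and -4.36 in regenerated cells, and passage 1 arrays 2 and 3 were alike at -4.87 and -4.25. The 5' minus 3' difference of GAPDH was also lower in regenerated cells, from -0.56 to -0.24, against -0.07 to 0.01 at passage 4 and -0.07 to 0.07 at passage 1. The 28S rRNA signal was 7821 to 9985 at passage 4 and 1485 to 3392 in regenerated cells, against 1349 to 5837 at passage 1, and the part of either in the results was not tested. Differences from passage 1 within a kind of labelling, taken with the kind as a block, are given where they change a call. The calls of cell type markers were not checked in that way. Differences within a kind set passage 4 against passage 1 array 1 and regenerated cells against passage 1 arrays 2 and 3. No kind holds both passage 4 and regenerated arrays, so with this block those groups are compared only through their differences from passage 1. Endothelial markers were present, with 8 of 10 above the filter, and their summed signal was from 22333 to 23395 at passage 4, from 19333 to 26491 in regenerated cells and from 23629 to 27151 at passage 1, while VWF and KDR were below the filter. Within that list NOS3, the endothelial nitric oxide synthase, was lower at passage 4 (-0.97, adjusted p = 0.045), and CLDN5, a tight junction protein, in regenerated cells (-1.62, adjusted p = 0.0134). NOS3 was at 1013, 728 and 684 at passage 4, against 1175, 1857 and 1803 at passage 1. Passage 1 array 1, labelled like the passage 4 arrays, was the nearest to them. Of 10 leukocyte markers LAPTM5 and CORO1A were above the filter, and PTPRC, the pan-leukocyte gene, was at 25.8 or less in every array. LAPTM5 was bright, from 4269 to 7065 over the arrays. LAPTM5 and CORO1A summed to between 4484 and 5685 at passage 4 and between 6107 and 7086 in regenerated cells, against 5123 to 6886 at passage 1. Neither passed the threshold in any comparison. The 7 fibroblast markers above the filter summed to between 6164 and 11028 at passage 4 and between 4873 and 5922 in regenerated cells, against 1966 to 3818 at passage 1. Most of the passage 4 sum was POSTN, for periostin, at 5059, 9212 and 4892 at passage 4. It was at 13.1, 1500.0 and 60.2 in regenerated cells, against 1103, 729 and 685 at passage 1. Of the 7 fibroblast markers 0 passed the threshold at passage 4, where the POSTN difference was 2.87 (adjusted p = 0.147). In regenerated cells LUM and THY1 rose by 3.50 and 2.89 on the log2 scale (adjusted p = 0.0396 and 0.00327). LUM was uneven in regenerated cells, at 660, 30.1 and 1014, and regenerated array 2 was below its 40th percentile. It was also below the 40th percentile in every passage 1 array, at 5.80, 17.9 and 14.1. THY1 was at 336, 558 and 573 in regenerated cells, against 42.6, 89.7 and 31.4 at passage 1. FAP was at 267, 484 and 315 in regenerated cells, against 37.5, 13.5 and 18.4 at passage 1. It passed the filter through its regenerated arrays only, so its difference of 3.25 is a description. POSTN, FBLN1, COL1A2 and DCN did not pass there (-2.48, 1.36, 0.08 and 0.23). The 4 smooth muscle markers above the filter summed to between 7089 and 22167 at passage 4 and between 20225 and 30584 in regenerated cells, against 8628 to 24329 at passage 1. ACTA2 alone ran from 196 to 13189 within passage 1. SMTN rose in regenerated cells (0.89, adjusted p = 0.0422), while CNN1, TAGLN and ACTA2 did not pass there (1.49, -0.04 and 2.79). None passed at passage 4. Between passage 4 and regenerated cells CNN1 passed (-2.53, adjusted p = 0.0325) and the others did not. Fibroblasts and smooth muscle cells are known to make complement proteins, and the part of these cells in the results below was not tested. In such bulk RNA, fewer cells of a type and less RNA per cell cannot be told apart.

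Transcripts of both C1 proteases were much lower in passage 4 and in regenerated cells than in passage 1 cells. C1R encodes the protease that activates itself in the C1 complex and then cleaves C1s. Its signals were 467, 768 and 171 in the passage 4 arrays and 735, 855 and 446 in the regenerated arrays, against 3829, 6110 and 7584 in the passage 1 arrays. The lowest passage 1 array was therefore above every array of the other groups. The passage 4 mean was lower than the passage 1 mean by a factor of 12.5. On the log2 scale C1R fell by 3.77 at passage 4 (SE 0.45, adjusted p = 0.00151) and fell by 3.07 in regenerated cells (SE 0.45, adjusted p = 0.00353). Within a kind of labelling C1R fell by 3.22 at passage 4 (adjusted p = 0.0386) and fell by 3.35 in regenerated cells (adjusted p = 0.00448).

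C1S encodes the protease that cleaves C4 and C2, and its gene lies next to C1R in the RefSeq order of Sscrofa11.1. Its signals were 782, 1749 and 284 at passage 4 and 1359, 1907 and 880 in regenerated cells, against 6460, 6570 and 6788 at passage 1. The passage 1 arrays lay close together (6606 ± 167, SD, n = 3) and all above the others, and passage 4 array 3 was the lowest array for both proteases. C1S fell by 3.14 at passage 4 (SE 0.49, adjusted p = 0.00537) and fell by 2.31 in regenerated cells (SE 0.49, adjusted p = 0.0207). The passage 4 call was lost within a kind of labelling at about the same size, -3.11 (adjusted p = 0.0698). In regenerated cells it was lost without passage 1 array 2 (-2.32, adjusted p = 0.0518), without passage 1 array 3 (-2.29, adjusted p = 0.0605) or without regenerated array 3 (-2.03, adjusted p = 0.0877).

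SERPING1, the gene of the plasma inhibitor that removes C1r and C1s from the C1 complex, is not one of the 9 genes but was on the list of other complement genes. It had signals of 785, 1063 and 484 at passage 4 and 1173, 1142 and 1600 in regenerated cells, against 2805, 4215 and 3103 at passage 1. As for the proteases, passage 4 array 3 was the lowest and no array of the other groups reached passage 1. SERPING1 fell by 2.14 at passage 4 (SE 0.27, adjusted p = 0.00223) and fell by 1.35 in regenerated cells (SE 0.27, adjusted p = 0.0164). The regenerated call was lost without passage 1 array 2 (-1.18, adjusted p = 0.0543) or regenerated array 2 (-1.27, adjusted p = 0.0759).

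**Figure D1:**
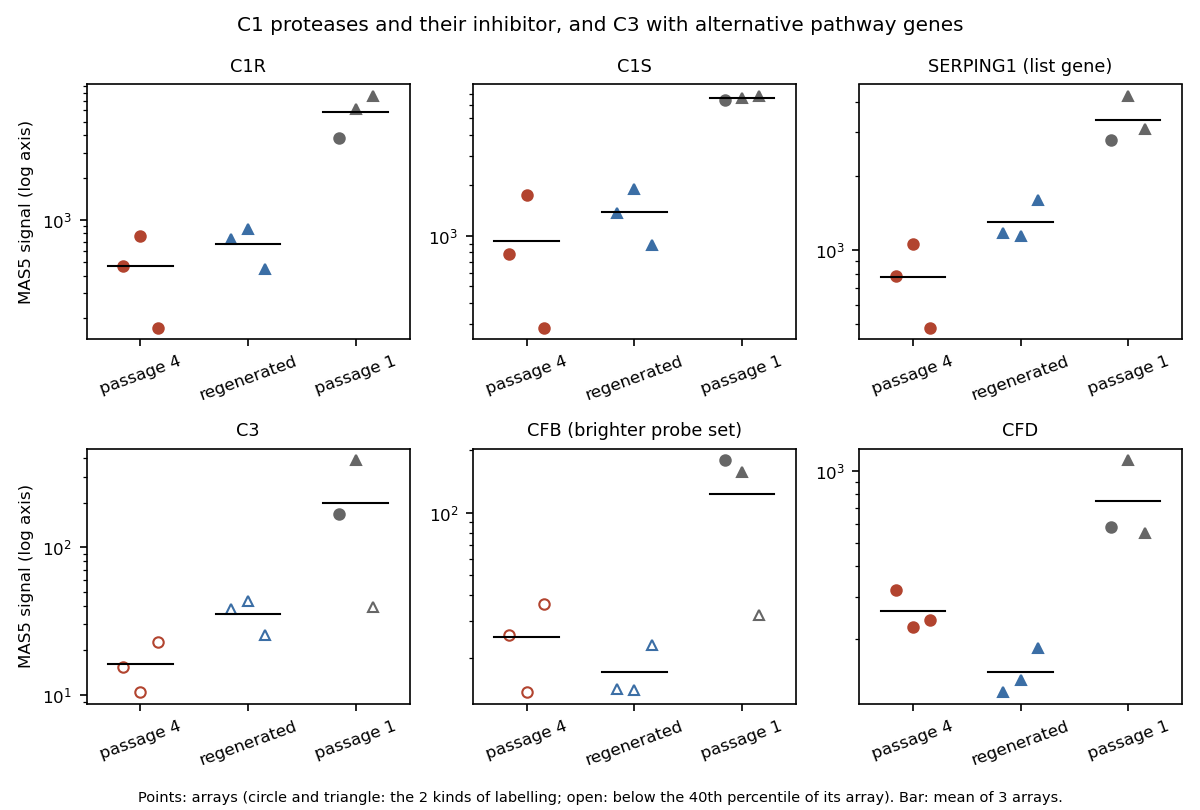
MAS5 signals on a log axis for each array, with passage 4, regenerated and passage 1 arrays from left to right, for the C1 proteases, their inhibitor, C3, the brighter CFB probe set and CFD. Circles and triangles mark the 2 kinds of labelling, open points lie below the 40th percentile of their array, and bars are means of 3 arrays. Passage 1 arrays stand above all others for C1R, C1S, SERPING1 and CFD, while C3 and CFB are dim outside passage 1 arrays 1 and 2.

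Of C3, CFB and CFD, the genes of the alternative convertase and of the protease that completes it, CFD alone passed the filter. C3 and CFB (1) were above the 40th percentile in passage 1 arrays 1 and 2 only. C3, the central component of the cascade, was at 15.5, 10.4 and 22.9 at passage 4 and 38.0, 43.2 and 25.3 in regenerated cells, against 167, 385 and 39.5 at passage 1. Passage 1 arrays 1 and 2 lay above the 40th percentile and the other 7 arrays below it. Passage 1 array 3 was lower than regenerated array 2, so those groups overlapped, while all passage 4 arrays were below all passage 1 arrays. When the filter was dropped the log2 difference of C3 was -2.32 at passage 4 (adjusted p = 0.0605) and -1.65 in regenerated cells (adjusted p = 0.155), and neither passed.

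CFB, the gene of factor B, showed a like picture on its brighter probe set. Signals of CFB (1) were 25.9, 13.7 and 36.3 at passage 4 and 14.1, 13.9 and 23.1 in regenerated cells, against 179, 157 and 32.0 at passage 1. Again passage 1 array 3 stood with the other groups and not with its own, below passage 4 array 3. Without the filter the differences were -1.55 (adjusted p = 0.133) and -1.84 (adjusted p = 0.0703). CFB (2) was below the 40th percentile on every array, between 2.32 and 33.3.

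CFD encodes factor D, the protease that cleaves factor B, also known as adipsin from fat cells. Its signals were 318, 224 and 240 at passage 4 and 120, 136 and 183 in regenerated cells, against 586, 1102 and 552 at passage 1. The 3 groups did not overlap, with regenerated cells lowest. CFD fell by 1.41 at passage 4 (SE 0.29, adjusted p = 0.0214) and fell by 2.18 in regenerated cells (SE 0.29, adjusted p = 0.00232). The passage 4 call was lost without passage 1 array 2 (-1.09, adjusted p = 0.0764), passage 4 array 2 (-1.31, adjusted p = 0.0815) or passage 4 array 3 (-1.36, adjusted p = 0.0861), and within a kind of labelling (-1.14, adjusted p = 0.241). Of 5 fat cell markers on the array 3 were above the filter, and they summed to between 95.6 and 172 at passage 4 and between 213 and 497 in regenerated cells, against 204 to 256 at passage 1. ADIPOQ, for adiponectin, was at 31.8 or less everywhere and below the filter.

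The membrane regulators did not share a pattern, and probe sets of 1 gene differed among themselves. CD59, the inhibitor of the membrane attack complex, was lower at passage 4 on its brighter probe set. CD59 (1) had signals of 297, 813 and 422 at passage 4 and 1527, 1866 and 1799 in regenerated cells, against 1559, 1918 and 1454 at passage 1. All 3 passage 4 arrays lay below the other 6, and regenerated and passage 1 arrays overlapped. CD59 (1) fell by 1.77 at passage 4 (SE 0.30, adjusted p = 0.00807). In regenerated cells its difference was 0.08, with a 95% interval from -0.57 to 0.73 (adjusted p = 0.909). The difference between passage 4 and regenerated cells was -1.85 (SE 0.30, adjusted p = 0.00404). Within a kind of labelling the passage 4 difference was -1.70 (adjusted p = 0.0923). With the kind as a block that between passage 4 and regenerated cells, taken through passage 1, was -1.75 (adjusted p = 0.155), so both calls were lost at a similar size and a larger SE.

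CD59 (2) was dimmer and showed another order. Its signals were 84.1, 235 and 85.4 at passage 4 and 74.0, 57.6 and 59.3 in regenerated cells, against 292, 88.8 and 81.9 at passage 1. Passage 1 array 1 was far above the other passage 1 arrays. The passage 4 difference was -0.10 (95% interval from -1.12 to 0.91, adjusted p = 0.933) and the regenerated one -0.89 (95% interval from -1.90 to 0.13, adjusted p = 0.295). The passage 4 difference became 0.43 without passage 1 array 1, 0.12 without passage 4 array 1 and 0.11 without passage 4 array 3, so its sign was not settled.

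CD46 encodes a cofactor for the cleavage of C3b and C4b by factor I. CD46 (1), its brightest probe set, had signals of 5264, 5401 and 3715 at passage 4 and 3333, 3780 and 4383 in regenerated cells, against 3940, 6613 and 5929 at passage 1. All groups overlapped. The differences were -0.18 at passage 4 (95% interval from -0.65 to 0.29, adjusted p = 0.705) and -0.49 in regenerated cells (95% interval from -0.96 to -0.02, adjusted p = 0.204).

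CD46 (2) had signals of 168, 133 and 135 at passage 4 and 50.7, 38.9 and 31.6 in regenerated cells, against 153, 63.9 and 59.97 at passage 1. Passage 1 array 1, the one labelled like the passage 4 arrays, stood with passage 4, and the other passage 1 arrays were nearer to the regenerated ones. CD46 (2) was higher by 1.52 at passage 4 than in regenerated cells (SE 0.33, adjusted p = 0.0124). That difference was 0.41 with the kind of labelling as a block, taken through passage 1 (adjusted p = 0.655), 1.43 without passage 4 array 1 (adjusted p = 0.0514) and 1.41 without regenerated array 3 (adjusted p = 0.053). Against passage 1 it was at 0.67 at passage 4 (adjusted p = 0.293) and -0.85 in regenerated cells (adjusted p = 0.154). Without passage 1 array 1 the passage 4 difference became 1.04 and passed (adjusted p = 0.0408), and within a kind of labelling it was -0.07 (adjusted p = 0.961). CD46 (3) ran from 49.0 to 81.0 at passage 4 and from 69.8 to 141 in regenerated cells, against 78.2 to 109 at passage 1, and did not pass in any comparison.

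CD55 and CLU, regulators on the list of other complement genes, were higher in regenerated cells. CD55, which speeds the decay of C3 convertases, was at 263, 244 and 293 at passage 4 and 279, 525 and 492 in regenerated cells, against 33.1, 235 and 95.4 at passage 1 on the brightest of its 5 probe sets. It rose by 1.96 in regenerated cells (SE 0.47, adjusted p = 0.0363), while the passage 4 difference was 1.34 (adjusted p = 0.138). CLU, for clusterin, a fluid-phase inhibitor of the membrane attack complex, was at 6920, 10640 and 8444 at passage 4 and 12203, 6925 and 10610 in regenerated cells, against 2472, 4127 and 6661 at passage 1. It rose by 1.24 in regenerated cells (SE 0.32, adjusted p = 0.0455), and the passage 4 difference was 1.06 (adjusted p = 0.0844). For both genes every array of the other groups lay above every passage 1 array. Of all tested probe sets 15.3% had that order at passage 4 and 12.3% in regenerated cells. The calls of CD55 and CLU were close to the threshold. Of the 9 fits that left out an array, CD55 passed without passage 1 array 2 or regenerated array 1, and CLU without passage 1 array 3, with adjusted p up to 0.141 and 0.139 in the others. Over all 19 alternatives CD55 passed in 8 and CLU in 4. Within a kind of labelling CD55 was at 1.37 (adjusted p = 0.0531) and CLU at 0.88 (adjusted p = 0.0853). CD55 also missed the threshold without the filter, without the intensity trend and with the 2 groups fitted alone (adjusted p = 0.0581, 0.0509 and 0.0768), and CLU did so in these fits and with quantile normalization or median centring (adjusted p = 0.0521 and 0.0536).

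The 2 probe sets annotated to SAA2, a serum amyloid A gene of the acute-phase response, went different ways. SAA2 (1) had signals of 2669, 2713 and 2368 at passage 4 and 1829, 1135 and 1138 in regenerated cells, against 1002, 1651 and 2455 at passage 1. Passage 4 arrays were bright and close together, and passage 1 arrays ran from below every regenerated array to within the passage 4 range. The differences were 0.69 at passage 4 (adjusted p = 0.218) and -0.26 in regenerated cells (adjusted p = 0.649), and between passage 4 and regenerated cells 0.94 (SE 0.29, adjusted p = 0.0545). The last value passed in 4 of its 19 alternatives: with the 2 groups fitted alone (adjusted p = 0.0131), without passage 1 array 1 (adjusted p = 0.0152) or 3 (adjusted p = 0.026), and without regenerated array 1 (1.17, adjusted p = 0.0264).

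SAA2 (2) had signals of 2.21, 6.47 and 1.59 at passage 4 and 41.2, 65.0 and 70.4 in regenerated cells, against 293, 312 and 168 at passage 1. The 3 groups stood apart, and all 3 passage 4 arrays were below the 40th percentile, where MAS5 signals have little meaning as levels. This probe set would have passed the filter on its passage 1 arrays alone and would not have passed without them. Its differences from passage 1 are therefore a description. It fell by 3.78 at passage 4 (SE 0.31, adjusted p = 0.000246) and fell by 1.85 in regenerated cells (SE 0.31, adjusted p = 0.00647), and passage 4 was lower than regenerated cells by a log2 difference of -1.93 (SE 0.31, adjusted p = 0.0039). The passage 4 size depends on the constant added before the log, and was -5.98 with 1 and -2.22 with 64 in place of 16. Likewise the difference between passage 4 and regenerated cells was -3.88 with 1 and -0.86 with 64. Within a kind of labelling the differences were -4.00 at passage 4 (adjusted p = 0.0063) and -1.74 in regenerated cells (adjusted p = 0.0173). Their difference from each other, taken through passage 1, was then -2.26 (adjusted p = 0.0989). SAA4, another serum amyloid A gene, is the next protein-coding gene to SAA2 in RefSeq, and serum amyloid A genes are alike in sequence, so which transcripts each probe set detects is uncertain.

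PTX3 encodes a long pentraxin that binds C1q and factor H and is made by endothelium. PTX3 (1) was at 128, 67.8 and 121 at passage 4 and 30.9, 77.9 and 24.7 in regenerated cells, against 26.3, 165 and 36.0 at passage 1. Passage 1 array 2 was the brightest of all 9 arrays, and the other passage 1 arrays were among the dimmest. The differences were 0.68 at passage 4 (95% interval from -0.45 to 1.82, adjusted p = 0.537) and -0.38 in regenerated cells (95% interval from -1.52 to 0.75, adjusted p = 0.713). PTX3 (2) was at 51.4, 34.9 and 61.9 at passage 4 and 34.5, 24.1 and 11.3 in regenerated cells, against 32.7, 27.6 and 13.6 at passage 1. All passage 4 arrays lay above passage 1 there, but only 2 of the 9 arrays were above the 40th percentile and without the filter the difference was 0.70 (adjusted p = 0.332).

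**Figure D2:**
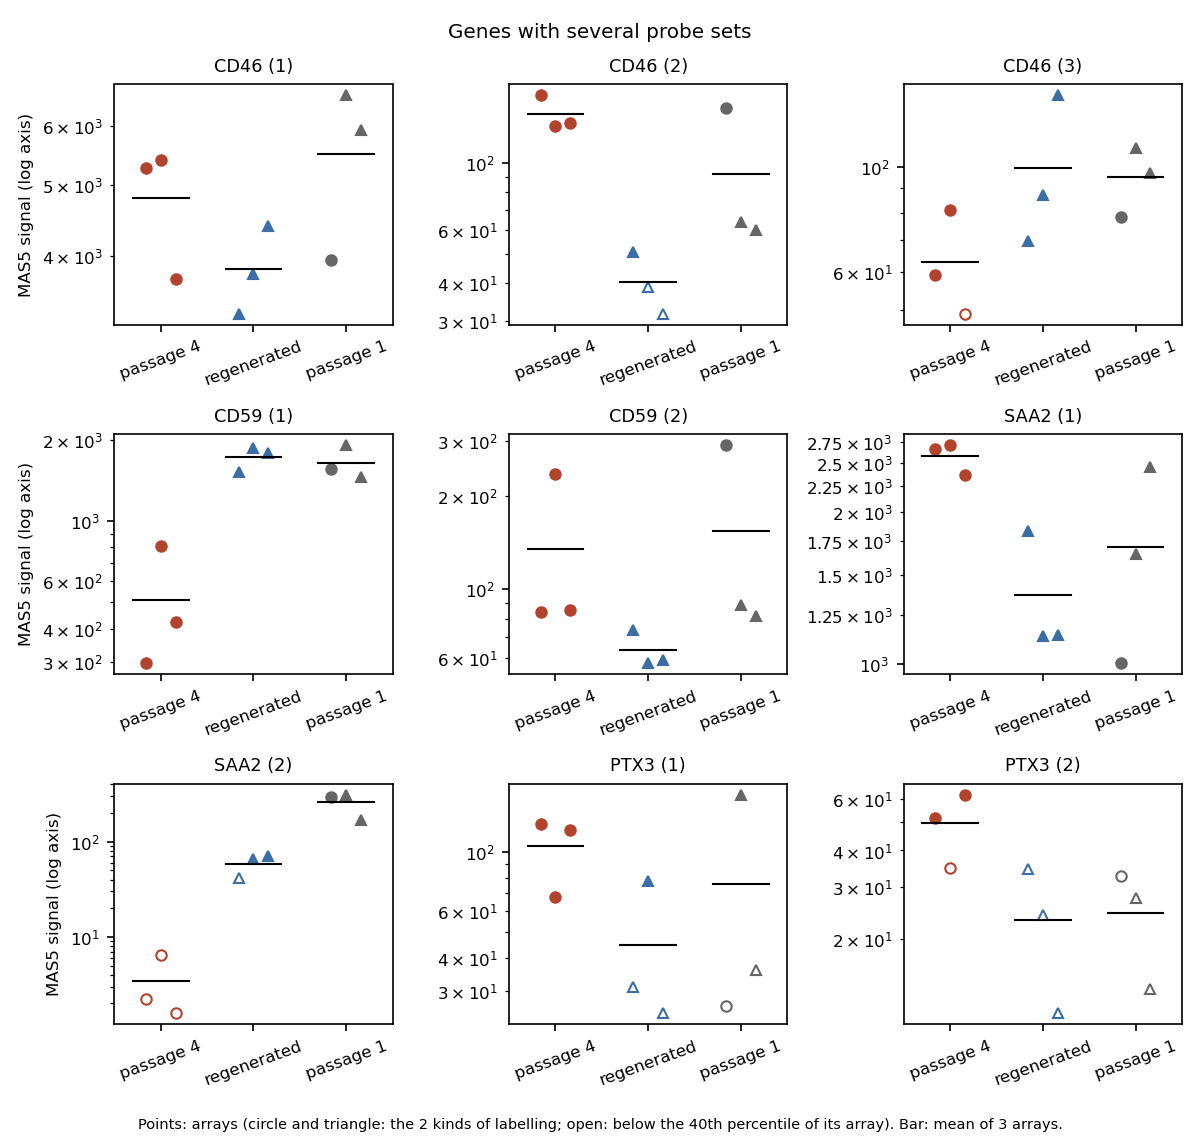
MAS5 signals on a log axis for each array, with passage 4, regenerated and passage 1 arrays from left to right, for every probe set of CD46, CD59, SAA2 and PTX3, numbered from the brightest. Circles and triangles mark the 2 kinds of labelling, open points lie below the 40th percentile of their array, and bars are means of 3 arrays. CD59 (1) is lower at passage 4 than in the other groups, SAA2 (2) falls into 3 separate groups, and SAA2 (1) and the CD46 probe sets do not follow it.

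Counted over the 11 tested probe sets, 5 fell at passage 4 (C1R, C1S, CFD, CD59 (1) and SAA2 (2)) and 0 rose, where 4.79% of all 15299 probe sets passed, 2.08% downward and 2.71% upward. These 5 were also the ones whose passage 4 arrays all lay below passage 1, an order that 9.61% of all probe sets had, while 15.3% had the opposite order and 24.9% either one. In regenerated cells 4 fell (C1R, C1S, CFD and SAA2 (2)) and 0 rose, where 5.49% of all passed, 2.51% downward and 2.98% upward. There 6 had all arrays below passage 1, the other two being CD46 (2) and CD59 (2), an order of 10.8% of all probe sets, with 12.3% in the opposite order and 23% in either. Both comparisons use the same 3 passage 1 arrays, so their likeness is not independent. SAA2 (2), which is among the falls in both, passed the filter only with its passage 1 arrays. The genes were also listed with earlier results of these data known, so these counts are a description.

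Between passage 4 and regenerated cells CD59 (1) and SAA2 (2) were lower at passage 4 and CD46 (2) was higher, which makes 3 of 11 where 12.5% of all passed, 4.35% lower and 8.14% higher. Groups did not overlap for 2 probe sets lower at passage 4, where 16.1% of all had that order, and for 4 higher ones, where 20.1% did, and 36.2% had either. For C1R and C1S the difference was -0.70 (95% interval from -1.69 to 0.29, adjusted p = 0.338) and -0.83 (95% interval from -1.90 to 0.24, adjusted p = 0.294). For CFD it was 0.77 (95% interval from 0.14 to 1.41, adjusted p = 0.103). The median over the 11 was -0.50 at passage 4 and -0.85 in regenerated cells, against 0.04 and -0.01 over all tested probe sets, which describes these probe sets only.

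**Figure D3:**
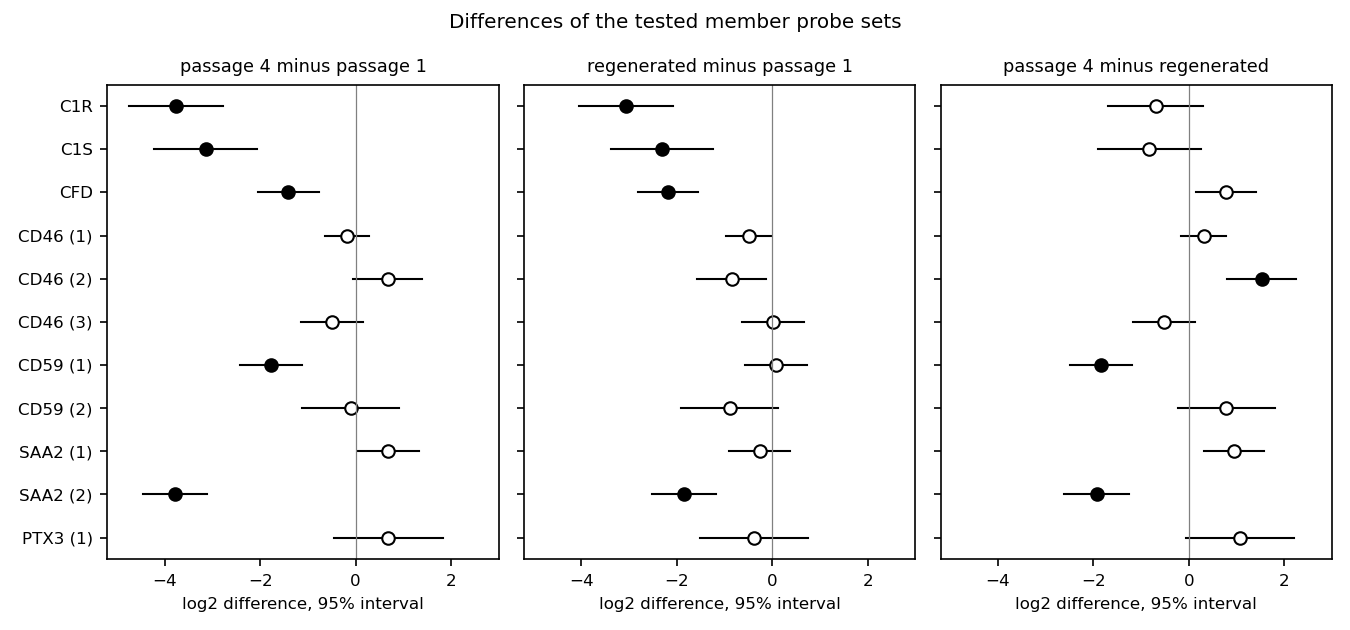
Log2 differences with 95% intervals for the 11 tested probe sets, for passage 4 minus passage 1, regenerated minus passage 1 and passage 4 minus regenerated. Filled points passed an adjusted p of 0.05 in limma. C1R, C1S, CFD and SAA2 (2) are filled below 0 in both comparisons with passage 1, and CD59 (1) at passage 4 only among those, with its passage 4 minus regenerated difference also filled.

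With the kind of labelling as a block, 2 of the 5 passage 4 calls held (C1R and SAA2 (2)), and all 4 regenerated calls held. Among differences that had not passed at passage 4, SAA2 (1) was then at 1.35 (adjusted p = 0.07), PTX3 (1) at 1.49 (adjusted p = 0.376) and CD59 (2) at -1.17 (adjusted p = 0.334). That fit has a median SE of 0.35 for passage 4, against 0.27 without the block, since passage 1 array 1 alone then stands for the control.

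**Figure D4:**
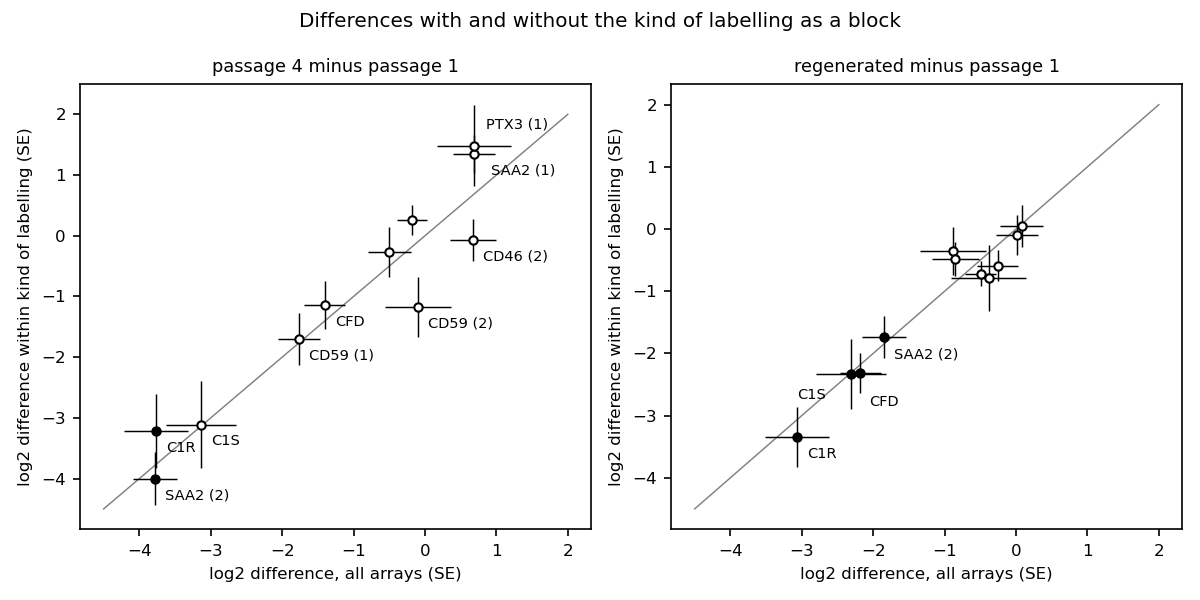
Log2 differences from passage 1 with all arrays (horizontal axis) and within a kind of labelling (vertical axis) for the 11 tested probe sets, each with its SE, on the left for passage 4 and on the right for regenerated cells. Filled points passed within a kind of labelling, and the line marks equal values. At passage 4 C1S, CFD and CD59 (1) lie close to the line and open within a kind of labelling, C1R is at -3.77 and -3.22, and CD46 (2), SAA2 (1), PTX3 (1) and CD59 (2) lie farthest from it.

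Most other complement genes were too dim to test. Of 43 genes listed 25 were on the array under that symbol and 7 passed the filter. At passage 4 SERPING1 fell and 0 rose, where 2.08% of all tested probe sets fell and 2.71% rose. In regenerated cells SERPING1 fell while CD55 and CLU rose, where 2.51% of all fell and 2.98% rose. The median difference of the 7 was -0.80 at passage 4 and -0.37 in regenerated cells, against 0.04 and -0.01 over all tested probe sets. C4A, which encodes the C4 cleaved by C1s, was at 41.6, 33.0 and 11.9 at passage 4 and 61.2, 24.9 and 31.1 in regenerated cells, against 50.5, 69.9 and 56.3 at passage 1, and did not pass (adjusted p = 0.239 and 0.458). CD93, a surface protein of endothelium once proposed as a C1q receptor, did not pass either, at -0.27 and -0.65 (adjusted p = 0.777 and 0.374).

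C1QA and C1QC encode chains of C1q, which macrophages are known to make. C1QC was at 11.2, 9.77 and 2.60 at passage 4 and 85.5, 17.6 and 67.2 in regenerated cells, against 20.2, 20.7 and 448 at passage 1. Passage 1 array 3 stood far above the rest for C1QC and was also highest for C1QA, at 112 against 67.0 or less elsewhere. The macrophage markers AIF1, FCER1G and TYROBP were highest in that array too, at 128, 80.6 and 57.1, though below the filter. Of the other leukocyte markers CD163 was highest there too, at 28.5, while CD14, CD2, CD3E, PTPRC, LAPTM5 and CORO1A were highest in other arrays. In the same array C3 and CFB (1) were the lowest of passage 1, and C1R was the highest. Without passage 1 array 3 the difference of C1R was -3.55 at passage 4 and -2.85 in regenerated cells.

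Of 33 other acute-phase genes 22 were on the array and 4 above the filter. Of 9 liver markers ALB, TTR, FGB, SERPINA1, APOA2 and APOB were below it. APOA1, HNF4A and AHSG were above it, and APOA1 was bright, from 6297 to 14710 over the arrays. TNFAIP6, whose product TSG-6 binds PTX3 and hyaluronan, was at 28.8, 56.3 and 54.7 at passage 4 and 41.2, 30.5 and 15.8 in regenerated cells, against 240, 384 and 88.4 at passage 1. All passage 1 arrays were higher than all others. It fell by 1.85 at passage 4 (SE 0.45, adjusted p = 0.0399) and fell by 2.33 in regenerated cells (SE 0.45, adjusted p = 0.0136). The passage 4 call was lost without passage 1 array 1 or 2, any of the passage 4 arrays or regenerated array 2 (adjusted p from 0.0601 to 0.156), within a kind of labelling (-2.06, adjusted p = 0.186), with the constant 1, without the filter and with the 2 groups fitted alone (adjusted p = 0.056, 0.0662 and 0.0633). The regenerated call was lost without regenerated array 2 or 3 (adjusted p = 0.0542 and 0.0611). TF, for transferrin, which falls in the acute phase in humans, was at 25.5, 12.6 and 28.1 at passage 4 and 61.9, 96.1 and 241 in regenerated cells, against 650, 782 and 40.5 at passage 1. Passage 1 array 3 was again apart from its group, and TF did not pass (-3.05, adjusted p = 0.0563, and -1.25, adjusted p = 0.409).

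Several genes that act upstream of complement and acute-phase transcription, among them cytokines, receptors and transcription factors, were also lower. Of 28 listed 20 were on the array and 14 above the filter. At passage 4 4 fell and 0 rose, where 2.08% of all tested probe sets fell, and 14 of the 14 differences were below 0, with a median of -0.85 against 0.04 over all. In regenerated cells 6 fell and 0 rose, where 2.51% of all fell, and 11 differences were below 0 and 3 above, with a median of -0.69 against -0.01 over all. IL6, the main inducer of the acute phase in liver, was at 174, 151 and 280 at passage 4 and 177, 232 and 156 in regenerated cells, against 1143, 3624 and 2297 at passage 1. It fell by 3.34 and fell by 3.40 (SE 0.37 each, adjusted p = 0.00144 and 0.000862). IRF1, a factor of the interferon response, fell by 1.34 and fell by 1.44 (adjusted p = 0.0045 and 0.00241), and NFKBIA, the inhibitor and target of NF-kB, fell by 1.20 and fell by 1.63 (adjusted p = 0.00944 and 0.00197). Within a kind of labelling the passage 4 calls of IRF1 and NFKBIA were lost (-1.15, adjusted p = 0.0674, and -1.35, adjusted p = 0.0593).

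CEBPD and CEBPB encode C/EBP factors that act on acute-phase promoters. CEBPD was at 777, 1102 and 1456 at passage 4 and 591, 718 and 702 in regenerated cells, against 3763, 3196 and 1395 at passage 1. It fell by 1.91 in regenerated cells (SE 0.34, adjusted p = 0.00835), and the passage 4 difference was -1.24 (adjusted p = 0.0593). CEBPB was at 801, 1242 and 1547 at passage 4 and 1981, 2154 and 2178 in regenerated cells, against 2612, 2427 and 1998 at passage 1. It fell by 1.00 at passage 4 (SE 0.22, adjusted p = 0.0286), a call lost without passage 1 array 2 or passage 4 array 1 or 2 (adjusted p from 0.0737 to 0.103) within a kind of labelling (-1.17, adjusted p = 0.121), without the intensity trend and with the 2 groups fitted alone (adjusted p = 0.0516 and 0.0595). In regenerated cells its difference was -0.15 (adjusted p = 0.746). STAT3, which carries the IL-6 signal, was at 1976, 1671 and 1769 at passage 4 and 2108, 2063 and 2385 in regenerated cells, against 2658, 3044 and 2284 at passage 1, and did not pass. IL1A and IL1R1, a cytokine and its receptor, fell in regenerated cells by 2.01 and by 0.98 (adjusted p = 0.0194 and 0.0362). IL1A lost its call without regenerated array 2 or 3 (adjusted p = 0.0838 and 0.0828), and of the fits that left out an array IL1R1 passed in those without passage 4 array 1 or 2 or regenerated array 1. IL1R1 also missed the threshold within a kind of labelling (-0.996, adjusted p = 0.0508) and with the 2 groups fitted alone (adjusted p = 0.0649).

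Between passage 4 and regenerated cells 2 of the 14 genes of that list passed, both lower at passage 4. Of all tested probe sets 12.5% passed, 4.35% lower and 8.14% higher. The differences of the list were below 0 for 7 genes and above 0 for 7. CEBPB was at -0.86 (SE 0.22, adjusted p = 0.0281). This call was lost without passage 4 array 1 or 2 or regenerated array 2 or 3 (adjusted p from 0.064 to 0.0923). It was also lost with the kind of labelling as a block (-1.10, taken through passage 1, adjusted p = 0.196) and without the intensity trend (adjusted p = 0.0501). JAK2, a kinase of cytokine receptors, was at -1.04 (SE 0.30, adjusted p = 0.0443). That call was lost without passage 1 array 2, passage 4 array 1 or 3 or regenerated array 2 or 3 (adjusted p from 0.0542 to 0.169). It was also lost with the kind of labelling as a block (-0.47, taken through passage 1, adjusted p = 0.66). Without the filter and with the stricter filter JAK2 missed the threshold too (adjusted p = 0.0687 and 0.0503).

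**Figure D5:**
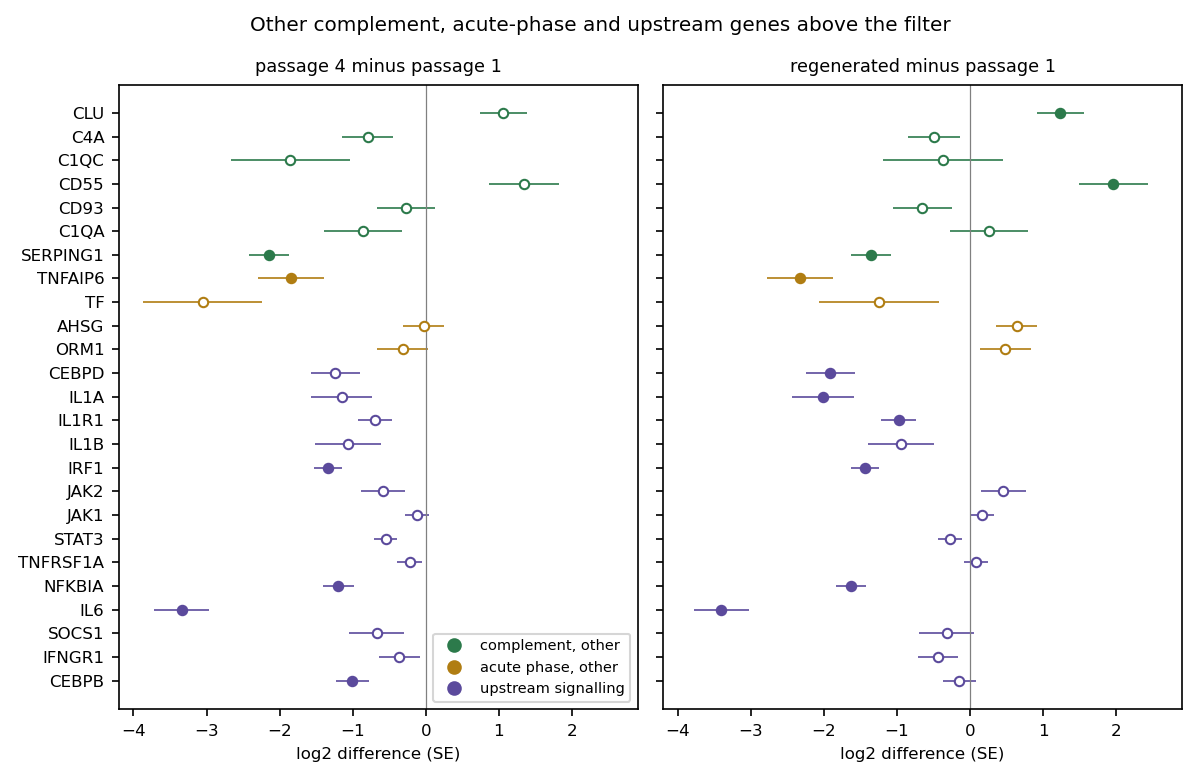
Log2 differences with SE for the genes of 3 lists that passed the filter on the brightest probe set, for passage 4 minus passage 1 (left) and regenerated minus passage 1 (right). Colours mark other complement genes, other acute-phase genes and upstream signalling genes, and filled points passed an adjusted p of 0.05. IL6 is the lowest point in regenerated cells and at passage 4, and CD55 and CLU are the filled points above 0 in regenerated cells.

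Likeness of pattern was measured as Pearson's r of log2 signals over the 9 arrays, which describes mostly the differences between the groups. It was ranked across 5493 named genes for C1R and 5494 for C3. The gene most like C1R was C1S (r = 0.978), followed by LOC100156073 (0.966), UBE2D2 (0.963), TXNIP (0.954) and CORO1B (0.944). CFD, at 0.754, was far down that order at rank 202. CD59 (1) was at 0.582 (rank 559) and SAA2 (1) at -0.177 (rank 3670). The genes most like C3, whose pattern rests on passage 1 arrays 1 and 2, were NDFIP1 (0.979), TSPO (0.936), FOLR1 (0.927), NRAP (0.920) and NR4A3 (0.907).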

How the data were processed

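Expression was measured on 9 Affymetrix porcine arrays, 3 per group. Each deposited value is the intensity of a probe set, unlogged and made with MAS5 per the submitters' processing notes. Its version and scaling target are not given in the sources used, and detection calls were not used here. With 2% trimmed from both ends, every array averaged 500.1, and no further normalization was applied. The 124 control probe sets were left out. Symbols came from the platform annotation: 10099 probe sets had 1 symbol, 198 several and 13826 none. Of the named ones 9989 matched RefSeq genes of Sscrofa11.1 by Entrez identifier, which changed 0 symbols. No coordinates are printed.

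The fit used limma 3.58.1 in R 4.3.3 (lmFit and eBayes, trend on mean intensity) on log2(signal + 16), 2-sided, with 6 residual and 5.65 prior degrees of freedom, and was tested on simulated data. Lists used the brightest probe set of a gene. Every probe set of the 9 genes is named, as are genes of the complement, acute-phase and upstream lists past the threshold, complement list genes above the filter, IL6, and the 5 genes most like C1R and C3; STAT3, TF and the marker genes given with values were chosen after their values were seen. The members and lists were chosen with earlier results of these data known, and the division into kinds of labelling was taken from them too. It was set at the largest gap in the spike-in values, 2.16, with 0.32 the next. Alternatives were another constant, filter, normalization, variance model and choice of arrays, a replicate block and the labelling kind as a block. Promoter motifs were planned and were not analysed here. The number of arrays limits the precision.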

Additional observations from a re-analysis of the deposited data

Results flagged for a closer look

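The change from passage 1 differed between passage 4 and regenerated cells for 3 probe sets of the 11, by the test of that difference in limma. CD59 (1) was at a log2 difference of -1.85 between passage 4 and regenerated cells (adjusted p = 0.00404), with the 3 passage 4 arrays between 297 and 813 and the regenerated arrays between 1527 and 1866. SAA2 (2) was at -1.93 (adjusted p = 0.0039), with passage 4 arrays, all below the 40th percentile, between 1.59 and 6.47 and regenerated arrays between 41.2 and 70.4. Its size ran from -3.88 to -0.86 over the alternatives, with the constants 1 and 64 at the ends. CD46 (2) was at 1.52 (adjusted p = 0.0124), with passage 4 arrays between 133 and 168 and regenerated arrays between 31.6 and 50.7. The passage 4 and regenerated arrays are of different kinds of labelling, and with that kind as a block, which compares them only through passage 1, the differences were -1.75, -2.26 and 0.41 (adjusted p = 0.155, 0.0989 and 0.655).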

How the results depend on the processing

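The count of 5 probe sets of these genes past the threshold at passage 4 was 2 with the labelling kind as a block, and from 4 to 6 with single arrays left out. The 4 of regenerated cells were from 3 to 4. The 3 between passage 4 and regenerated cells were 1 with the stricter filter (60th percentile), which leaves SAA2 (2) and CD46 (2) out of the test, 0 with the labelling kind, and from 2 to 4 with arrays left out. Over all probe sets the 733 passage 4 calls became 150 with the labelling kind and from 244 (without passage 1 array 2) to 1403 (without passage 1 array 1), and 310, 300 and 262 without passage 4 array 1, 2 or 3. The 840 regenerated calls became 479 with the 2 groups fitted alone and from 291 (without regenerated array 2) to 1238, with 345 without regenerated array 3 and 513 without passage 1 array 3. The 1912 calls between passage 4 and regenerated cells became 35 with the labelling kind and from 895 (without regenerated array 3) to 2406; they were 943 without regenerated array 2 and 1043, 1033 and 983 without passage 4 array 1, 2 or 3. The cause was not tested.

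The sign turned for differences that had not passed. With the labelling kind these were, at passage 4, CD46 (2) at -0.071 and CD46 (1) at 0.26; in regenerated cells, CD46 (3) at -0.094; and between passage 4 and regenerated cells, CD59 (2) at -0.82 and C1R at 0.13. With median centring CD46 (3) was at -0.012 in regenerated cells. With single arrays left out, CD59 (2) at passage 4 ran from -0.54 to 0.43, and in regenerated cells CD46 (3) ran from -0.23 to 0.21, SAA2 (1) from -0.59 to 0.049, CD59 (1) from -0.00435 to 0.19 and PTX3 (1) from -0.78 to 0.27. Median centring put the median of all tested probe sets at -0.12 for passage 4 against passage 1 and against regenerated cells, from 0.04 and 0.01.

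Replicate numbers are shared by the groups, but of 9 same-numbered pairs 1 had correlated deviations over 0.1, so the numbers were not taken as pairing. With a replicate block the calls of these genes stayed at 5, 4 and 3, and those over all probe sets were 549, 554 and 1626. Of the list genes, CLU (adjusted p = 0.0599) and IL1R1 (0.0736) in regenerated cells and CEBPB at passage 4 (0.0502) then missed the threshold.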
